A study of Arabidopsis thaliana with 4 samples.

Results

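The 4 genes described here are AT3G15450, AT2G20670, AT2G05540 and AKINBETA1, Arabidopsis thaliana genes linked to low sugar or darkness. They were chosen by their measured signals, since each was higher on average on the knockout arrays than on the wild type arrays. Each is read by 1 probe set, a group of short probes for 1 transcript, so they account for 4 of the 22746 plant probe sets on the ATH1 array. All 4 passed the filter on dim probe sets, which left 15924 for testing. Whole seedlings at developmental stage 1.02 were compared between a CDB1 line (2 arrays), which the labels call a complete knockout with Col-0 as its genetic background, and Col-0 wild type, stock code N1092 (2 arrays). Both groups grew on 1/2 MS10 media in a growth room at 20 °C, under 16 h days and 80% humidity, and the labels do not spell out the sugar content of that medium. The labels name neither the mutant allele nor the number of independent lines, and nothing says that the replicates came from separate cultures, so the spread between arrays may be technical. No annotation used here ties the name CDB1 to a probe set, so the loss of its transcript could not be checked.

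Plants build sugar in the light and live on stored starch at night. When sugar runs short, in a long night or in shade, the protein kinase SnRK1 (relative of yeast SNF1 and animal AMPK) becomes active. It turns on genes for the breakdown of amino acids, lipids and cell walls and turns off genes of biosynthesis and growth. SnRK1 is made of a catalytic alpha, a beta and a gamma subunit, and AKINBETA1 encodes a beta subunit, which holds the complex together and directs it to its place in the cell. AT3G15450 encodes a protein of the family known as aluminium-induced proteins with YGL and LRDR motifs, whose transcripts are often used as signs of low carbon. AT2G20670 encodes a protein of the DUF506 family, and AT2G05540 a glycine-rich protein of the kind often found in cell walls. The biochemical function of these last proteins is not well known.

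Values are MAS5 signals, a linear brightness in arbitrary units that the authors scaled to a like level on each array. Array medians were 47.9 and 47.9 in the knockout and 48.3 and 50.6 in wild type. Across tested probe sets the arrays correlated at 0.982 within the knockout, 0.977 within wild type and 0.975 to 0.984 between the groups, so both within-group values lay inside the range between groups. In limma 51 of 15924 probe sets (0.320%) had an adjusted p under 0.05, and this count ranged from 20 without knockout replicate 2 to 87 without wild type replicate 1. Without knockout replicate 1 it was 23.

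AT3G15450, AT2G20670 and AT2G05540 had about double the wild type signal on the knockout arrays, while the difference of AKINBETA1 was much smaller. On all 4 genes both knockout arrays lay above both wild type arrays. Of all tested probe sets 15.0% had this order and 16.9% the reverse. Because the genes were chosen for being higher in the knockout, these values are a description and no test is given for them. The arrays hold RNA of whole seedlings, so more RNA per cell and more cells of a type that expresses the gene cannot be told apart.

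AKINBETA1 (locus AT5G21170, chromosome 5) read 198.2 and 246.1 on the knockout arrays, against 167.3 and 171.0 on the wild type arrays. The groups did not overlap, but the lower knockout array stood only 1.16-fold above the higher wild type array. The means were 222 ± 33.9 in the knockout and 169 ± 2.62 in wild type (SD, n = 2 each). On the log2(signal + 16) scale used for all differences, where the added 16 damps the noise of dim probe sets, AKINBETA1 was higher by 0.36. The knockout replicates were 24.2% apart, and most of the difference came from the second. It was 0.21 without knockout replicate 2 and 0.50 without knockout replicate 1. Among all tested probe sets, 418 (2.62%) had a larger increase.

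AT3G15450 (chromosome 3) read 1302 and 1237 on the knockout arrays, against 689 and 707 on the wild type arrays. The replicates of a group were within 5.0% of each other and the groups were far apart. The means were 1269 ± 45.7 in the knockout and 698 ± 12.3 in wild type (SD, n = 2 each), a ratio of 1.82. The log2 difference was 0.85, and it lay between 0.79 and 0.90 for each of the 4 pairings of a knockout array with a wild type array. This was the narrowest range of the 4 genes, and 34 tested probe sets (0.214%) had a larger increase.

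AT2G20670 (chromosome 2) read 277.8 and 265.0 on the knockout arrays, against 138.3 and 126.0 on the wild type arrays. Here the first replicate was the higher in both groups, and the lower knockout array was 1.92-fold above the higher wild type array. The means were 271 ± 9.05 in the knockout and 132 ± 8.70 in wild type (SD, n = 2 each). The log2 difference was 0.96, with single pairings between 0.86 and 1.05. A larger increase was seen for 23 tested probe sets.

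AT2G05540 (chromosome 2) read 273.6 and 329.1 on the knockout arrays, against 123.6 and 142.8 on the wild type arrays. The second replicate was the higher in both groups, by 20.3% in the knockout and 15.5% in wild type. The means were 301 ± 39.2 in the knockout and 133 ± 13.6 in wild type (SD, n = 2 each), a ratio of 2.26. This was the largest log2 difference of the 4 genes, at 1.09, with single pairings from 0.87 to 1.31. In all, 15 tested probe sets had a larger increase.

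**Figure D1:**
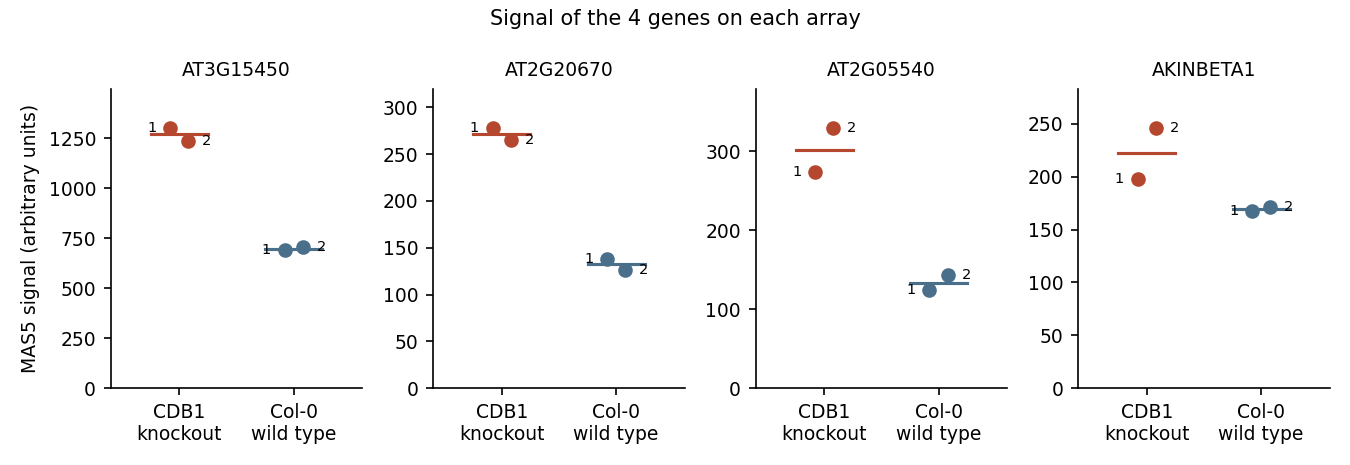
MAS5 signal (arbitrary units, from 0) of the 4 genes on each array, with the CDB1 knockout left and Col-0 wild type right. Points are arrays, numbered by replicate, and lines are group means. Both knockout points lie above both wild type points in every panel, and the gap is smallest for AKINBETA1 (198.2 against 171.0 for the nearest arrays).

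**Figure D2:**
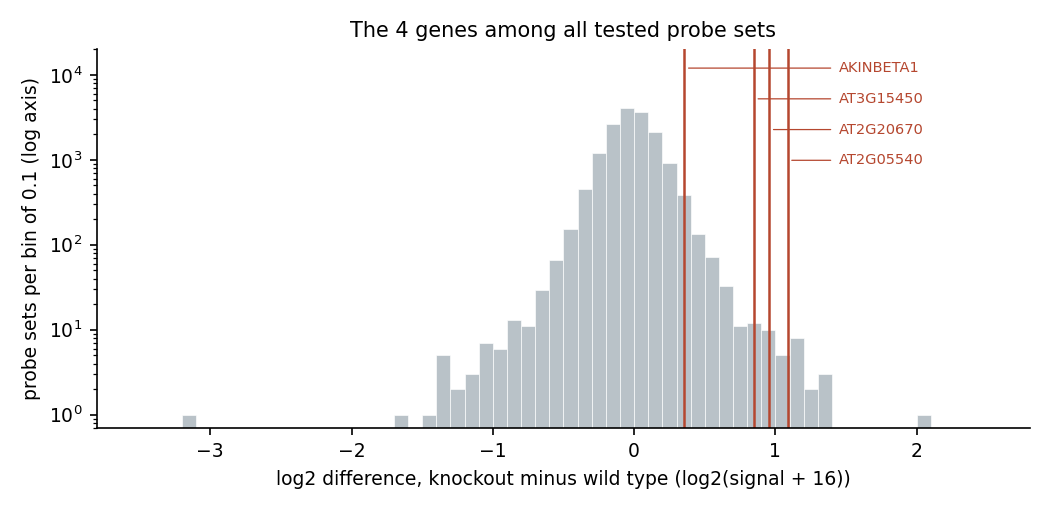
Distribution of the log2 difference, knockout minus wild type, over the 15924 tested probe sets in bins of 0.1, with the count on a log axis. Red lines mark the 4 genes: AKINBETA1 at 0.36 lies near the edge of the bulk, and the other 3 genes at 0.85 to 1.09 lie in its thin upper tail.

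The bulk of the array lay near 0: the median log2 difference over all tested probe sets was -0.01, and their 5th and 95th percentiles were -0.29 and 0.28. The differences of AT3G15450, AT2G20670 and AT2G05540 were therefore at least 3 times as far from 0 as the 95th percentile, while AKINBETA1 lay just beyond it. The gap between replicates was next set beside that of other probe sets. Its median over all tested probe sets was 0.15 in the knockout and 0.17 in wild type, on the log2 scale. The gap of AT3G15450 was 0.07 in the knockout and 0.04 in wild type, and that of AT2G20670 was 0.06 and 0.12. The gap of AT2G05540 was wider, at 0.25 and 0.19, and AKINBETA1 combined a gap of 0.29 in the knockout with 0.03 in wild type.

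For all 4 genes both knockout arrays lay above both wild type arrays. Leaving out any 1 array therefore had to leave all 4 differences above 0, and only their sizes could change. Their ranges were 0.81 to 0.88 for AT3G15450, 0.90 to 1.02 for AT2G20670, 0.96 to 1.21 for AT2G05540 and 0.21 to 0.50 for AKINBETA1. The order of the 3 large differences was not fixed. Without knockout replicate 2 that of AT2G20670 (0.99) exceeded that of AT2G05540 (0.96), and it did so too without wild type replicate 1 (1.02 against 0.99).

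**Figure D3:**
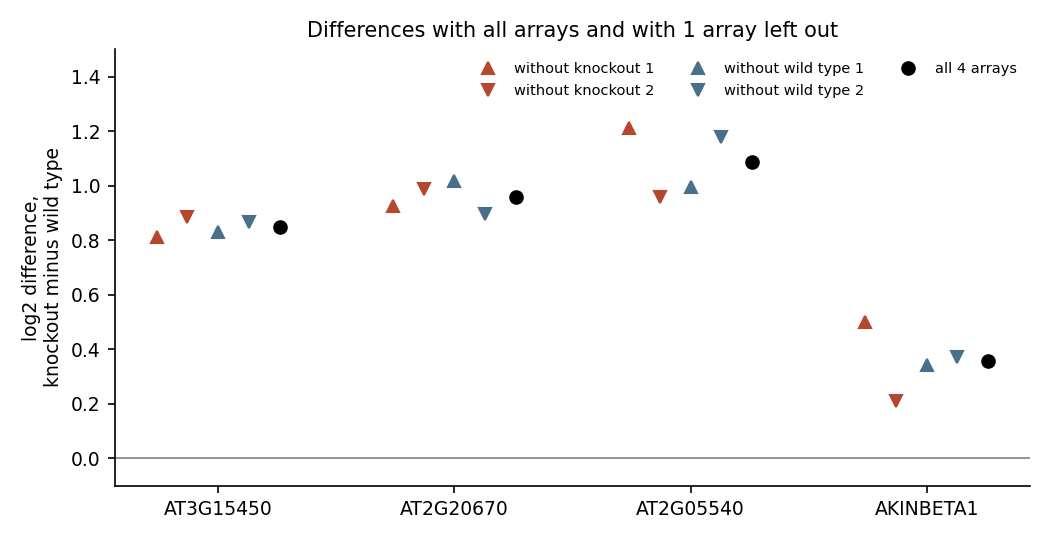
Log2 difference, knockout minus wild type, of the 4 genes with all 4 arrays (black) and with 1 array left out (red triangles for a knockout array, blue for a wild type array). All values are above 0, as they must be where both knockout arrays lie above both wild type arrays. The range is widest for AKINBETA1 relative to its size, from 0.21 without knockout replicate 2 to 0.50 without knockout replicate 1.

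The profiles of the 4 genes over the arrays were compared after centring each on its own mean. The root mean square distance, in log2 units over the 4 arrays, was 0.0773 between AT3G15450 and AT2G20670, the closest pair. AT2G05540 was 0.174 from AT3G15450 and 0.169 from AT2G20670. AKINBETA1 stood apart, at 0.278 to 0.370 from the other genes. Likeness here mostly restates that genes have a like difference between the groups, since 4 arrays give little more to compare.

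Among the 8730 other tested probe sets with a single gene, the profile nearest to AT3G15450 was that of AT3G28270, at a distance of 0.0277. AT5G04120, a gene of the phosphoglycerate mutase family, followed at 0.0457, and AT4G22610, a lipid transfer type protein gene, at 0.0561. AT4G22610 was also the nearest to AT2G20670, at 0.0238, and averaged 346 ± 7.50 in the knockout and 174 ± 6.43 in wild type (SD, n = 2 each). AT4G25370, which encodes a subunit of the plastid Clp protease, was next at 0.0815, and the jacalin-type lectin gene AT5G35940 at 0.0887. Nearest to AT2G05540 were AT5G05600 (0.0788) and JRG21 (0.0914), which encode oxygenases that inactivate jasmonate, and again AT5G35940 (0.104). The genes nearest to AKINBETA1 were others: APS3, an ATP sulfurylase of sulfate assimilation, at 0.0182, AT2G32150 at 0.0270 and AT1G72820, of the mitochondrial carrier family, at 0.0278. APS3 averaged 178 ± 32.0 in the knockout and 135 ± 3.68 in wild type (SD, n = 2 each), with the higher value again on knockout replicate 2.

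The other members of the same protein families and complex had log2 differences between -0.54 and 0.34. None passed the test, against 0.320% of all tested probe sets. AKINBETA2 read 112.2 and 117.9 on the knockout arrays, against 117.5 and 95.5 on the wild type arrays. The groups overlapped, with a log2 difference of 0.10 (95% confidence interval -0.23 to 0.43). AKINBETA3, a plant-type beta subunit that lacks part of the usual structure, averaged 101 ± 6.15 in the knockout and 107 ± 0.141 in wild type (SD, n = 2 each), a log2 difference of -0.06 (interval -0.37 to 0.25). Only these 2 of the 9 other genes on the list of SnRK1 subunits and activating kinases are named in the annotation, and the catalytic subunits are not among them.

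All 4 listed relatives of AT3G15450 were measured. AT4G27450, which is also known as a gene of darkness and low sugar, read 1635 and 1677 on the knockout arrays, against 1781 and 1741 on the wild type arrays. It was thus slightly lower in the knockout, by a log2 difference of -0.09 (interval -0.36 to 0.18), where AT3G15450 was 0.85 higher. AILP1, AT3G22850 and AT5G43830 were at 0.06, 0.10 and 0.02, and the highest upper limit among the 4 intervals was 0.39. The median of the 4 was 0.04, but it was below 0 without knockout replicate 2 (-0.05) and without wild type replicate 2 (-0.0012).

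Of the 12 listed relatives of AT2G20670, 5 were named and tested. AT2G38820 averaged 100.3 ± 1.56 in the knockout and 76.4 ± 13.9 in wild type (SD, n = 2 each), a log2 difference of 0.34 (limma adjusted p = 0.955). AT2G39650 went the other way, with 66.4 and 67.3 on the knockout arrays against 123.1 and 88.8 on the wild type arrays. Its log2 difference of -0.54 had an unadjusted limma p of 0.00742 and an adjusted p of 0.463. AT3G07350, AT1G12030 and AT3G22970 were at 0.27, -0.04 and -0.14 with overlapping groups. The median of the 5 was -0.04 and changed sign when knockout replicate 1 or either wild type array was left out.

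AT2G05540 lies among other glycine-rich protein genes on chromosome 2. Of the 5 listed neighbours of this kind, AT2G05530 was measured by name, at 24.2 and 15.0 in the knockout and 17.3 and 23.3 in wild type. These signals lay about the brightness floor of 19.5 and the groups overlapped (log2 difference -0.04). In the RefSeq order of genes, 16 protein-coding genes flank the 4 genes within 2 places, and 6 of them were tested by name. None of the 6 passed the test or had an unadjusted limma p under 0.05, against 0.320% and 5.24% of all tested probe sets. With so few genes, counts of 0 cannot be told from these shares. Their log2 differences ranged from -0.08 to 0.20. For AKINBETA1 no flanking gene is named in the annotation.

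Other genes known to be induced by low energy gave no call. Of 40 such genes, listed without the 4 genes above, 8 were named and tested, and 0 passed an adjusted p of 0.05 in limma, against 0.320% of all tested probe sets. One, MCCA, had an unadjusted p under 0.05, against 5.24% of all. In this list 4 genes were above 0 and 4 below, and the median log2 difference was 0.09, against -0.01 over all tested probe sets. Without knockout replicate 2 the median was 0.18, with 5 genes above 0. The best known markers of low energy, such as ASN1, SEN1 and DIN10, are not among the named probe sets, so their levels are not analysed here.

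The genes of this list above 0 were MCCA, IVD, D2HGDH and MCCB. Each was higher on both knockout arrays, so 4 of the 8 tested genes of the list had this order and 1 had the reverse. Over all tested probe sets the shares were 15.0% and 16.9%. None of the 8 passed the test. MCCA, a subunit of the enzyme that carboxylates methylcrotonyl-CoA in leucine breakdown, read 102.9 and 90.2 in the knockout, against 54.8 and 68.7 in wild type. Its log2 difference was 0.54 (interval 0.19 to 0.88, limma adjusted p = 0.406). MCCB, the other subunit of that enzyme, read 173.0 and 140.6 in the knockout, against 134.4 and 134.0 in wild type, a difference of 0.20 (interval -0.13 to 0.52). IVD, which acts one step earlier on isovaleryl-CoA, read 92.6 and 87.9 in the knockout, against 75.9 and 66.5 in wild type, a difference of 0.29 (interval -0.03 to 0.61). D2HGDH, which oxidises hydroxyglutarate and like IVD passes electrons to the respiratory chain, averaged 67.0 ± 5.66 in the knockout and 53.4 ± 3.61 in wild type (SD, n = 2 each).

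ETFQO, which receives the electrons from IVD and D2HGDH, showed no such order. It read 51.9 and 83.3 on the knockout arrays, against 70.1 and 67.5 on the wild type arrays, a difference of -0.05 (interval -0.46 to 0.36). PPDK, which makes phosphoenolpyruvate from pyruvate, was at -0.01 (interval -0.30 to 0.28), with 381.1 and 359.3 in the knockout and 370.2 and 374.4 in wild type. ATL8, a RING-type ubiquitin ligase gene used as a sign of low sugar, was at -0.07 (interval -0.41 to 0.27). AT4G27450, given above as a relative of AT3G15450, is also on this list. It was at -0.09 and was lower on both knockout arrays.

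Of 11 genes known to be induced by sugar 3 were named. Of these APL4 was too dim to test, and APL3 and DFR were tested and neither passed. Both were lower on both knockout arrays, an order that 16.9% of all tested probe sets had. APL3, a large subunit of the enzyme that starts starch synthesis and strongly induced by sugar, read 146.8 and 137.0 in the knockout, against 212.3 and 194.9 in wild type. The log2 difference of APL3 was -0.48 (interval -0.78 to -0.17, limma adjusted p = 0.418). DFR, an enzyme of anthocyanin synthesis, read 420.0 and 415.6 in the knockout, against 484.0 and 512.0 in wild type. Its difference was -0.24 (interval -0.53 to 0.04). APL4 was listed at 14.2 and 12.3 in the knockout and at 17.3 and 22.9 in wild type, below or near the brightness floor.

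ICL, isocitrate lyase, with which seedlings turn stored oil into sugar, was the only gene named on the list of seed reserve mobilisation. It read 219.1 and 229.0 in the knockout, against 261.8 and 335.7 in wild type, a difference of -0.38 (interval -0.72 to -0.05, limma adjusted p = 0.840). The wild type arrays were far apart, and the value was -0.21 without wild type replicate 2. The dark-induced senescence list had WRKY53 and WRKY6, at -0.11 and -0.06, and the ribosomal protein genes RPL4A and RPP0B were at 0.03 and 0.05.

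**Figure D4:**
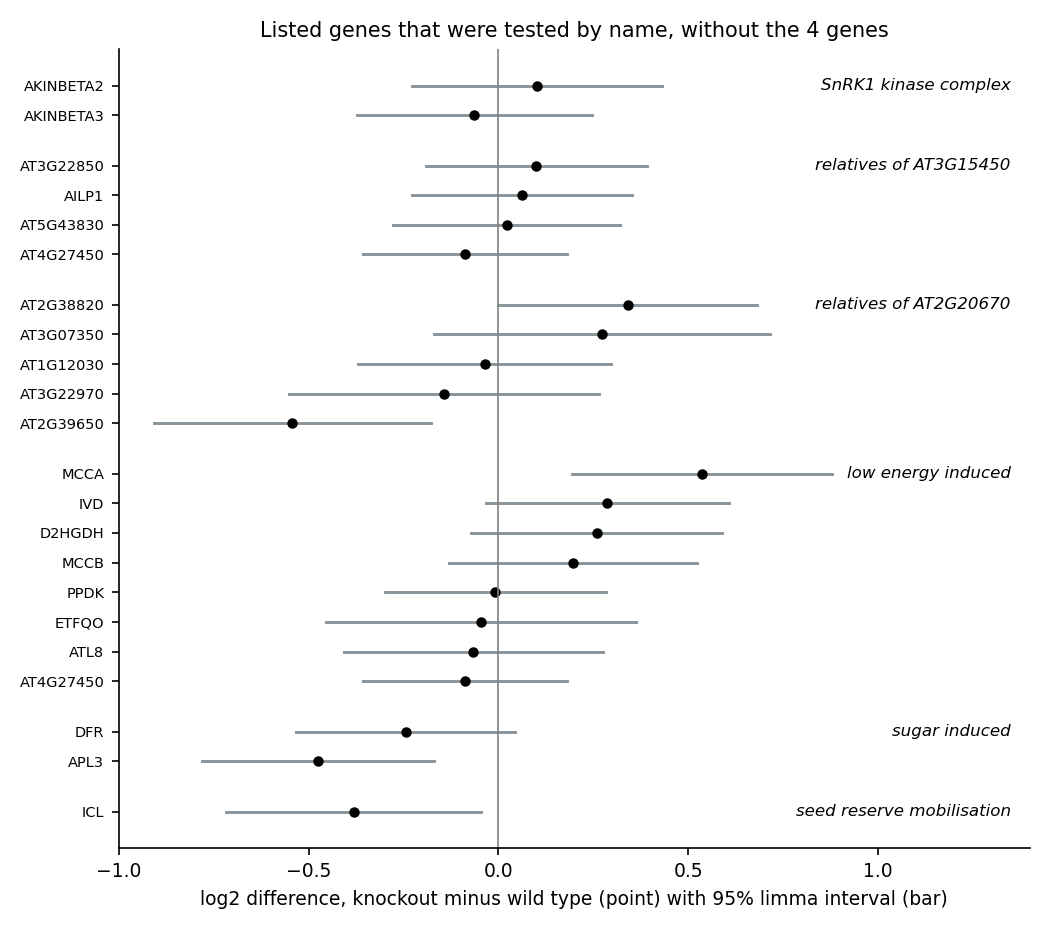
Log2 difference, knockout minus wild type (points), with 95% limma confidence intervals (bars), for tested genes of 6 lists, without the 4 genes the report is about. AT4G27450 is drawn both as a low energy gene and as a relative of AT3G15450. No gene passed an adjusted p of 0.05. The intervals of MCCA (above 0) and of AT2G39650, APL3 and ICL (below 0) do not include 0.

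Carriers that move sugar between cells or into the vacuole were added as a list after the values had been seen, taking every named SWEET and TMT gene. Of the 19, 16 were tested, with 5 above 0, 11 below and a median of -0.10. None passed. SWEET15, also named SAG29 for its rise in senescence, read 59.5 and 65.4 in the knockout, against 38.5 and 37.1 in wild type (difference 0.54, limma adjusted p = 0.355). SWEET13 read 75.9 and 64.3 in the knockout, against 102.2 and 111.1 in wild type (difference -0.51, limma adjusted p = 0.397). TMT2, a vacuolar carrier, was at -0.29 and SWEET16 at 0.30. Of the bZIP transcription factors that work with SnRK1, a second added list of 9, BZIP53 was at 0.18 (514.3 and 514.2 in the knockout, 460.9 and 441.1 in wild type) and BZIP44 at -0.09 with overlapping groups.

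Several other features of the arrays were set beside these values, and their part in the differences was not tested. Genes of darkness change over the day, and of 19 clock genes only GI could be measured, at 121.7 and 130.4 in the knockout and 158.7 and 133.1 in wild type (difference -0.18, limma adjusted p = 0.998). Of the 19 green tissue markers 3 were named, and their summed signal was 5281 to 5402 in the knockout and 4591 to 4975 in wild type. LHCB4.1, a light-harvesting protein gene, was at 0.32 (interval 0.04 to 0.61, limma adjusted p = 0.840). LHCB4.2 was at 0.16 (interval -0.14 to 0.45), also higher on both knockout arrays. RCA, the brightest of the 3, was at 0.05 with overlapping groups (2430 and 2685 in the knockout, 2672 and 2292 in wild type). Of 7 root markers 3 were named, with summed signals of 2659 to 2976 in the knockout and 2699 to 3046 in wild type, which overlap. PYK10, whose groups overlapped, made up most of these sums. The other named root markers were higher on both knockout arrays, as were 15.0% of all tested probe sets. EXPA7 read 55.9 and 55.9 in the knockout against 28.7 and 50.3 in wild type. EXPA18 read 58.5 and 60.9 against 51.0 and 49.5, and no root marker passed in limma. None of these markers was at 0 on any array, but without detection calls a signal above 0 does not show that a transcript was present. No seed marker is named.

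The 25S ribosomal RNA control read 2196 and 992 in the knockout, against 556 and 841 in wild type. Of 11 control probe sets for added bioB, bioC, bioD and cre RNA above the brightness floor, 6 were lower on both knockout arrays, 5 overlapped and 0 were higher. These are a part of the controls for added bacterial and phage RNA, and several read the same RNA, so they are not independent. Of all 36 control probe sets above the floor, 14 were lower on both, 2 were higher on both and 20 overlapped. Of all tested probe sets 16.9% were lower on both and 15.0% higher on both. The median log2 difference of the 11 controls was -0.14. The signal ratio of the 3' to the 5' end of the actin transcript, a sign of RNA integrity, was 2.49 and 1.90 in the knockout and 1.83 and 2.51 in wild type with the newer control probe sets, and 5.01 and 4.85 against 9.42 and 7.24 with the older ones. The newer actin ratios overlap between the groups and the older do not. The ratios of GAPDH and ubiquitin overlapped with both kinds of probe set, so 5 of 6 ratios overlapped.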

How the data were processed

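Total RNA of 4 samples was hybridised to 1-colour ATH1 arrays. The deposited intensity values were made by the authors with MAS5, per the submitters' processing notes, whose version, settings and detection calls the labels do not state. Signals are linear, from 0 to 4620, and were used as deposited. The 64 control probe sets were set aside, as were those with a mean signal below the 30th percentile (19.5). Differences are means of log2(signal + 16), knockout minus wild type, and understate the change of dim genes. All 15924 probe sets were fitted with limma 3.58.1 in R 4.3.3 (two-sided eBayes tests on lmFit, with an intensity trend), and p-values were adjusted over all of them by Benjamini-Hochberg. An exact permutation test of 2 against 2 arrays cannot go below p = 0.333. The procedure was tested on simulated data. The number of arrays limits the precision.

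The 4 genes and all 15 gene lists were chosen with earlier results of these data known. Of the lists, 13 were written with the design and 2 were added later, and the green tissue markers are a subset of the list on light and photosynthesis. They hold 206 other genes, of which 51 were tested by name. Of the 51, 0 passed in limma, against 0.320% of all tested probe sets. An unadjusted limma p under 0.05 was found for 7, against 5.24% of all, and the lowest adjusted p was 0.355. Text names the 4 genes, listed genes with the largest differences in each direction, and for each of the 4 genes the 3 nearest profiles. Flanking genes, and some listed genes with small differences, were added to this rule. The platform's annotation named a single gene for 13513 of 22746 probe sets, several for 503, and 8730 are unnamed here. Gene numbers matched RefSeq (TAIR10.1) for 13436. The array's build is not given, so no coordinates are printed, and no sequences were used here.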

Additional observations from a re-analysis of the deposited data

How the results depend on the processing

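The differences of the 4 genes were above 0 in all 8 alternatives run for each (quantile normalization, median centring, pseudocounts of 1 and 64, and each array left out). With 1 array left out or another pseudocount, this sign was fixed by the order of the arrays, and only the size could change. The pseudocount moved the 3 larger differences most: with 64 AT3G15450 was at 0.81, AT2G20670 at 0.77 and AT2G05540 at 0.89, and with 1 AT2G20670 was at 1.03. AKINBETA1 moved most with 1 array left out, from 0.21 to 0.50. No low energy gene was called in any of the 12 alternatives, and the list's median ranged from 0.091 to 0.18 with 1 array left out and from 0.07 to 0.13 otherwise.

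The count of 51 probe sets past the threshold was 0 with no filter on dim probe sets (limma, 1081 at an unadjusted p under 0.05) and 20 to 87 with 1 array left out. There the lone array of a group is assumed to vary like the others. Both groups carry replicates 1 and 2, and no label ties the number to a batch. Across probe sets, replicate 2 minus replicate 1 correlated at -0.30 between the groups. With the replicate block the count was 89. A crossed pairing, added after seeing the data, gave 195. With 2 arrays a group, no outlier test was possible. Dim genes such as APL4 and AT2G05530 lie too near the brightness floor to show a difference.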
